A study of Spinacia oleracea with 24 samples.

Results

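The data compare spinach leaves at the end of the light period with spinach leaves in the middle of the light period, in plants given high nitrogen. The comparison used 6 of the 24 libraries of the study and 16711 of the 25494 genes in the deposited table. A gene was taken in when its FPKM (fragments scaled for gene length and by a factor for each library) was at least 1 in at least 3 of these 6 libraries. The high nitrogen groups were leaves of Spinacia oleracea, genotype Space, fertilized with 200 ppm nitrogen, sampled at T3 (end of light, 3 plants) and T2 (middle of light, 3 plants). The low nitrogen groups, used only to set this interval beside the same interval at another nitrogen level, received 50 ppm nitrogen and were sampled at the same times (3 plants each). Leaves of the same kind were also taken at T1 (end of dark) and T4 (middle of dark). All plants were 48 days old, grew in turface under 8 h of light per day, and were collected within a single day, so that each time rests on 3 plants of 1 day. The libraries are of whole leaves, in which fewer cells of a type and less RNA per cell cannot be told apart.

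Plants anticipate dusk with a circadian clock. In Arabidopsis, LHY and its REVEILLE relatives are dawn transcription factors, the pseudo-response regulators follow them in a wave through the day, and the ELF4, ELF3 and TOC1 (APRR1) proteins act towards the evening. The clock drives outputs such as the CONSTANS-like and B-box regulators of flowering and light growth, starch turnover and nitrate use. The names below are those of the most similar Swiss-Prot proteins in the deposited table, mostly of Arabidopsis, and the roles given are known from that species unless another is named.

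The high nitrogen libraries held 22898722, 21503174 and 20027372 fragments at the end of light, and 22104035, 18757216 and 22047654 in the middle of light. The light-harvesting antenna genes summed to 58672, 81246 and 40450 FPKM at the end of light and to 75172, 73611 and 98056 FPKM in the middle of light. Of the 26 genes on the root marker list, 14 were listed at 0 in all 6 libraries. No member of the guard cell, phloem, xylem, root or flower marker lists passed the test. Of 29 epidermis and cuticle genes 2 did (6.9%, against 3.11% of all genes). They were KCS4 (Spo01316) and CER1 (Spo18012), both lower at the end of light. With each of the 6 libraries left out in turn, KCS4 was past the threshold in 4 fits and CER1 in 0. On the log2 scale, the median SD of a gene between plants was 0.22 for T3 and 0.279 for T2.

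Of the 16711 genes, 520 (3.11%) differed between the end and the middle of light at an adjusted p under 0.05 (limma, Benjamini-Hochberg). At the end of light 240 genes were higher (1.44%) and 280 were lower (1.68%), and 378 of the 520 (2.26% of the genes tested) differed at least 2-fold. The median log2 change was 1.23 among the 240 genes that rose, -1.32 among the 280 that fell, and -0.002 over all genes tested. A change of at least 8-fold was found for 16 genes that rose and 8 that fell. The 520 genes carried 2.96%, 2.95% and 3.3% of the summed FPKM at the end of light, and 3.61%, 3.68% and 3.18% in the middle of light. Most were well expressed: 461 of the 520 had an FPKM of at least 1 in all 6 libraries, as did 15079 of the genes tested. Another 9 of the genes that rose and 12 of those that fell passed the filter through 1 of the groups alone, which bound them to differ. At the edge of the filter, 433 genes were tested with exactly 3 libraries at an FPKM of 1 or more, and 496 with exactly 2 such libraries were not.

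The number of genes called changed when single libraries were left out. Each such fit has 1 plant fewer in its group, so the effect of a smaller group and that of the library itself cannot be told apart. It was 257 without middle-of-light replicate 1, 339 without middle-of-light replicate 2 and 558 without middle-of-light replicate 3. It was 282, 297 and 339 without end-of-light replicates 1, 2 and 3. A core of 195 genes, 91 higher and 104 lower, was called whichever of the 6 libraries was left out, and the text says where a named gene lies outside that core. The balance of directions depended on the scaling: with every library set to a common sum of FPKM, the median of all genes moved to 0.134 and the calls became 288 higher and 180 lower. End-of-light replicate 3 had the lowest sum, 705355 FPKM, against 970367 and 883159 in its group and 1008934, 945050 and 879210 in the middle of light.

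Clock genes moved in both directions. Of 26 tested members of the circadian clock list, 5 rose and 6 fell at the end of light, and their median log2 change was -0.05, against -0.002 over all genes. The 2 lists with the largest shares of members past the threshold were this one (42.3%) and that of CDF, CONSTANS-like, B-box and PIF genes (54.2%), against 3.11% of all genes tested. Both lists were chosen with earlier results of these data known. The clock share counts EFL1 and EFL3, which passed the filter through the end-of-light group alone. Whichever library was left out, 4 clock genes that rose and 5 that fell kept their calls, and 3 and 6 on the other list.

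LHY (Spo01117, chromosome 2, 59058703 to 59070547, minus strand of the Sp75 genome), the dawn transcription factor of the clock, stood at 14, 11.8 and 9.84 FPKM at the end of light, against 249, 374 and 282 FPKM in the middle of light. Every end-of-light plant was far below every middle-of-light plant. The log2 change was -4.54 ± 0.3 (SE, adjusted p = 1.3e-08), the lowest of all 520 genes. RVE8 (Spo04754), a related transcription factor that activates afternoon genes, fell by 2.23 on the log2 scale (adjusted p = 0.00017). It had 50.7, 39.9 and 35 FPKM at the end of light and 214, 204 and 179 FPKM in the middle of light. The coactivators that work with it fell as well: LNK2 (Spo06774) had 20.6, 18.3 and 10.7 FPKM at the end of light and 122, 134 and 116 FPKM in the middle of light (log2 change -2.88 ± 0.24). LNK1 (Spo07301) had 22.3, 21 and 23.1 FPKM at the end of light and 101, 116 and 114 FPKM in the middle of light (log2 change -2.27 ± 0.26). The groups did not overlap for any of these 4 genes, as for 10.2% of all genes in that direction, and all 4 belonged to the core.

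The 5 genes that rose included some with evening roles in Arabidopsis. EFL1 (Spo11195), named after an ELF4-like protein, had 67.7, 44.3 and 74.6 FPKM at the end of light and 0, 0.813 and 0.418 FPKM in the middle of light. EFL3 (Spo10269), a second ELF4-like gene, had 27.8, 19.4 and 20.3 FPKM at the end of light and 0.119, 0 and 0 FPKM in the middle of light. Both were at or near 0 in every middle-of-light plant and well expressed in every end-of-light plant, with fitted log2 changes of 5.49 ± 0.39 and 4.49 ± 0.42. Both are among the 9 genes that passed the filter through the end-of-light group alone, so that their calls were bound to go this way. APRR1 (Spo08124), named after the evening repressor TOC1, had 81, 72.2 and 67.8 FPKM at the end of light and 3.01, 3.37 and 4.04 FPKM in the middle of light (log2 change 4.06 ± 0.49). ADO3 (Spo25748), named after the blue-light receptor FKF1 that promotes flowering in long days, had 65.7, 46 and 41.2 FPKM at the end of light and 3.65, 4.83 and 5.58 FPKM in the middle of light (log2 change 3.18 ± 0.39). JMJ30 (Spo15731), a histone demethylase with an evening rhythm in Arabidopsis, was no member of the clock list and rose in the same way, to 56.7, 48.7 and 50.2 FPKM at the end of light, against 2.04, 3.32 and 2.43 FPKM in the middle of light (log2 change 3.89 ± 0.65).

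Not all members with one name moved together. The table names a pair of genes after APRR5, a pseudo-response regulator that represses the dawn genes. One of them (Spo22291) had 146, 96.6 and 63.3 FPKM at the end of light and 13.4, 28.1 and 20 FPKM in the middle of light, a log2 change of 2.23 ± 0.45 (adjusted p = 0.0061). The other (Spo01087) had 8.23, 6.93 and 8.48 FPKM at the end of light and 41.5, 46.1 and 34.5 FPKM in the middle of light, a log2 change of -2.23 ± 0.18 (adjusted p = 2e-07). The rise of Spo22291 lay just outside the core, with an adjusted p of 0.051 without middle-of-light replicate 1 and 0.05 without end-of-light replicate 1. It was 0.06 with a pseudocount of 0.1.

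EFL4 (Spo25307), another ELF4-like gene, was lower at the end of light with 50.1, 66.5 and 63.5 FPKM, against 106, 85.6 and 112 FPKM in the middle of light (log2 change -0.74 ± 0.19, adjusted p = 0.037). Its call held only with middle-of-light replicate 2 left out: without each of the other libraries the adjusted p was 0.15 and 0.1 (middle-of-light replicates 1 and 3) and 0.19, 0.063 and 0.076 (end-of-light replicates 1, 2 and 3). It was 0.19 with a common sum of FPKM and 0.11 in a fit of the 6 libraries alone.

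The other 15 clock genes did not pass the test. GI (Spo04360), the evening gene GIGANTEA, had 72.9, 67.4 and 59.7 FPKM at the end of light and 32.5, 56.6 and 41.4 FPKM in the middle of light (log2 change 0.64 ± 0.32, adjusted p = 0.39). ELF3 (Spo14415), a partner of ELF4, had 16.6, 17.5 and 18.4 FPKM at the end of light and 10, 10.4 and 11.7 FPKM in the middle of light (adjusted p = 0.066). In both genes every end-of-light plant was above every middle-of-light plant, an arrangement found in that direction for 10.1% of all genes tested. PRR73 (Spo13065) averaged 63.7 ± 5.58 FPKM at the end of light and 69.5 ± 3.15 FPKM in the middle of light (SD, n = 3 each). RVE1 (Spo19963), which links the clock to auxin, averaged 12.6 ± 3.39 FPKM at the end of light and 13.7 ± 2 FPKM in the middle of light. The other 11, among them ADO1, BOA, LWD1, TIC, XCT, RVE5 and RVE6, had log2 changes between -0.37 and 0.42.

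**Figure D1:**
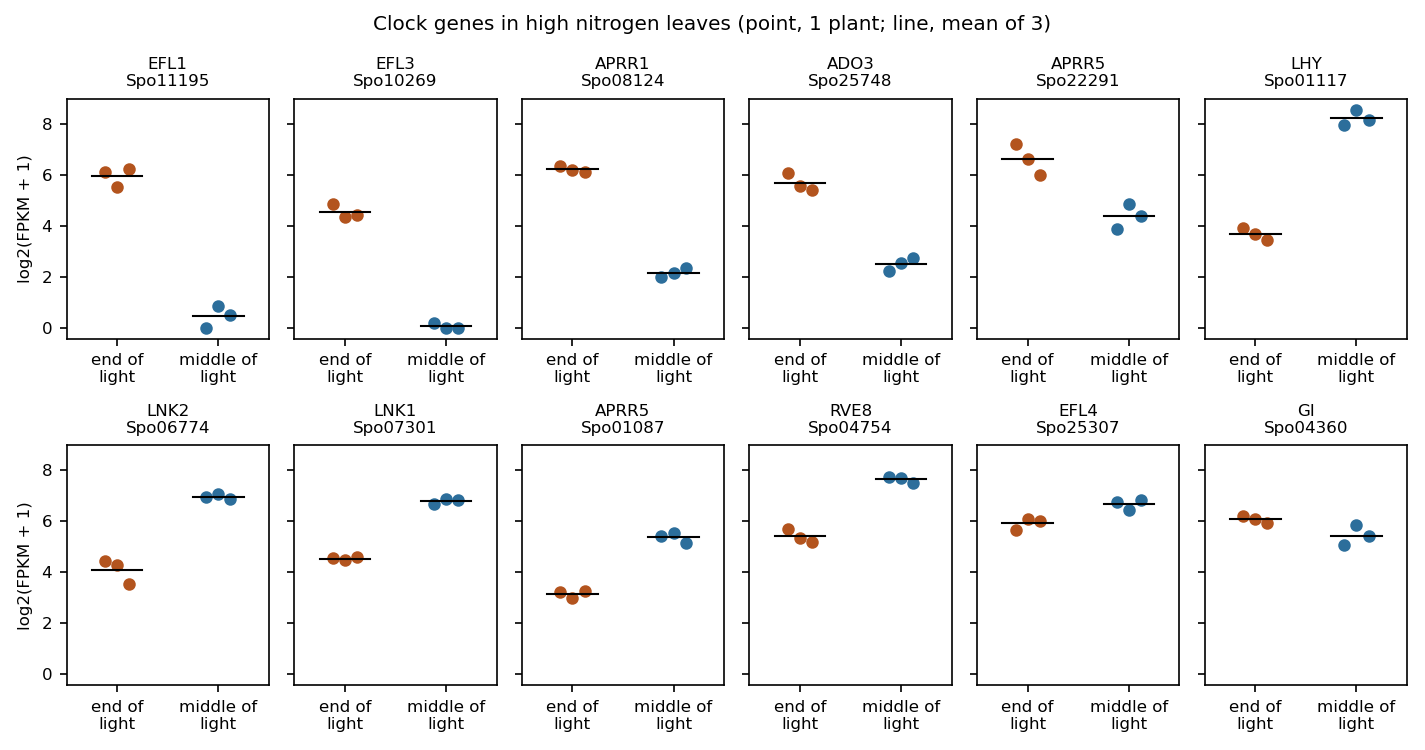
Levels of the 11 clock genes past the test and of GI in high nitrogen leaves, as log2(FPKM + 1), with the end of light on the left and the middle of light on the right of each panel; each point is 1 plant and each line a mean of 3. The groups are apart in every panel, by most in EFL1 (log2 change 5.49) and LHY (-4.54) and by little in EFL4 (-0.74) and GI (0.64, not past the test).

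The CONSTANS-like, B-box, CDF and PIF genes, which carry light and day length signals to flowering and seedling growth, split almost evenly: 7 of 24 tested members rose and 6 fell, with a median log2 change of 0.01. COL15 (Spo19195) had 89.3, 64.4 and 49.3 FPKM at the end of light and 0.936, 2.15 and 1.09 FPKM in the middle of light, a log2 change of 4.84 ± 0.32 (adjusted p = 1.3e-08). In the opposite direction, a gene named after the B-box protein BBX31 (symbol MIP1B, Spo03899) had 3.36, 4.17 and 4.47 FPKM at the end of light and 97.5, 92.9 and 50 FPKM in the middle of light (log2 change -3.97 ± 0.3). BBX24 (Spo19461), a repressor of light-driven development, had 19.1, 17.6 and 20.9 FPKM at the end of light and 84.4, 75.1 and 78.3 FPKM in the middle of light (log2 change -1.99 ± 0.23). These 3 genes held in every fit.

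Named after their values were seen, the other members that fell were COL2 (Spo12296, log2 change -2.54), the bHLH factor UNE10 (Spo08635, -2.25), the flowering repressor CDF3 (Spo08108, -1.59) and COL4 (Spo22109, -0.8). COL2 averaged 78.6 ± 23.6 FPKM at the end of light and 458 ± 124 FPKM in the middle of light. The other members that rose included COL16 (Spo05007, 1.56), the light-signalling factor HY5 (Spo05151, 1.24) and BBX22 (Spo18158, 0.97), a partner of HY5. Without middle-of-light replicate 1 the list had 4 members that rose and 6 that fell; HY5 and BBX22 were among those lost (adjusted p = 0.06 and 0.072).

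Of 26 tested photoreceptor and light-signalling genes 3 fell, all 3 in the core, and none rose past the threshold (11.5%, against 3.11% of all genes). The list had 8 positive and 18 negative log2 changes and a median of -0.18. With a common sum of FPKM 2 fell and the median was -0.04, beside 0.134 for all genes. CRY1 (Spo23854), the blue-light receptor cryptochrome, had 82.9, 73.3 and 81.8 FPKM at the end of light and 196, 224 and 208 FPKM in the middle of light (log2 change -1.39 ± 0.17, adjusted p = 6.9e-05). The other members were SPA3 (Spo26335, -1.34) and SPA1 (Spo01724, -1.03), which work with COP1 to have light-signalling factors degraded. SPA1 was past the threshold in every leave-one-out fit and not with a common sum of FPKM (adjusted p = 0.068) or in a fit of the 6 libraries alone (0.077).

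**Figure D2:**
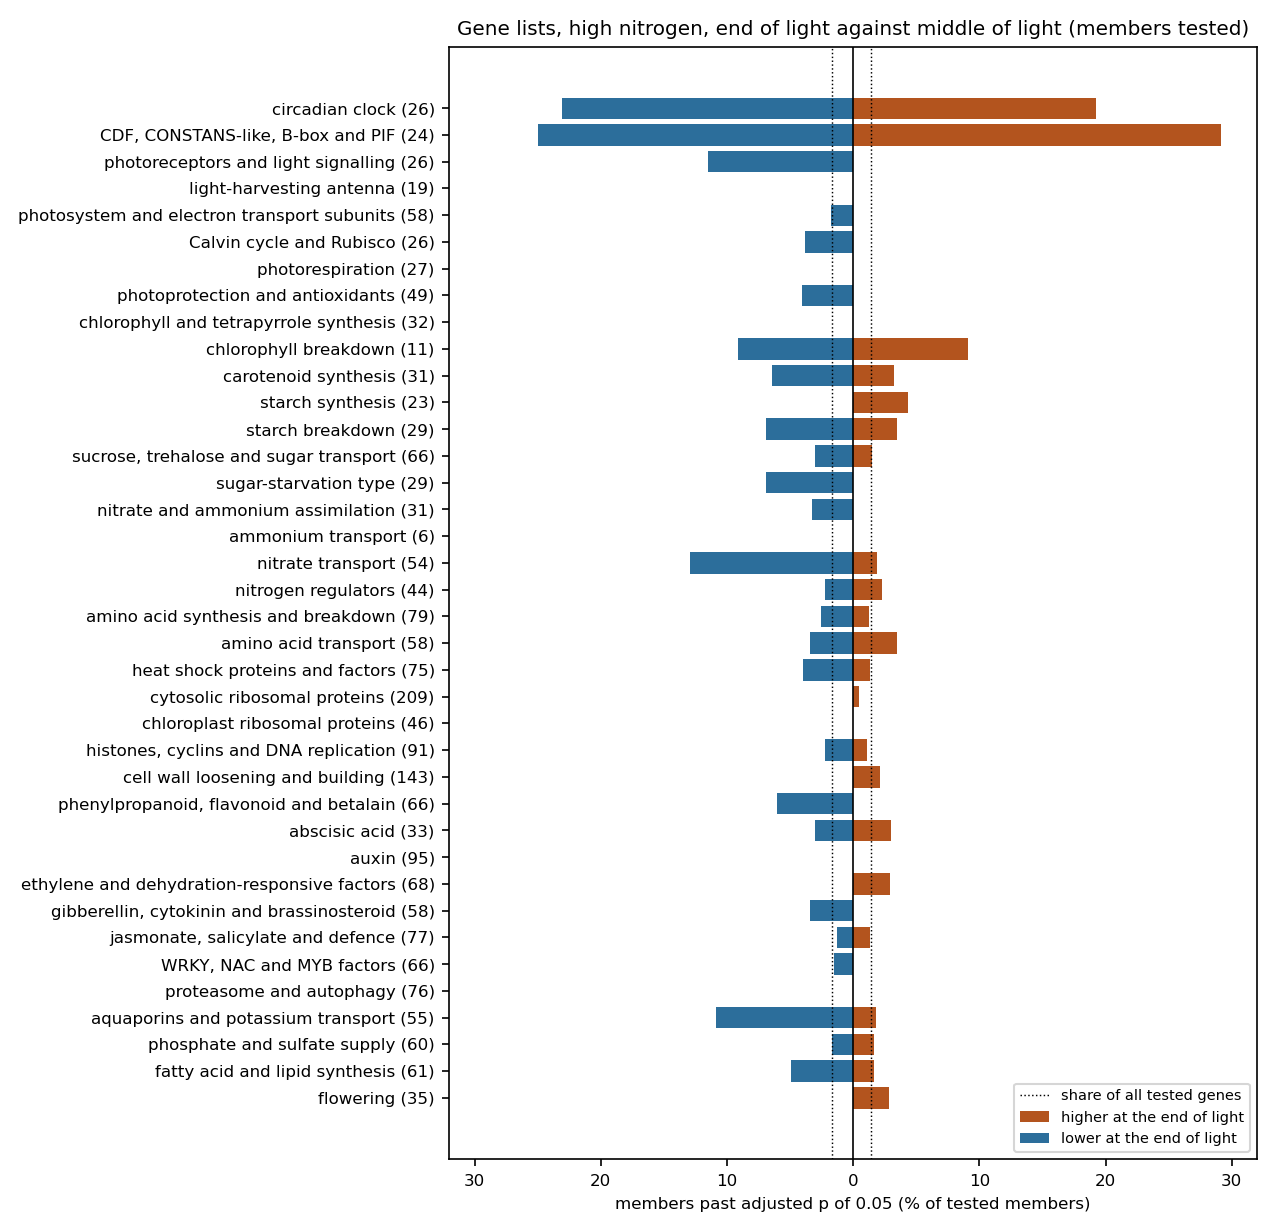
Share of tested members of each gene list past an adjusted p of 0.05 in high nitrogen, in percent, with members higher at the end of light to the right and lower to the left; the number tested stands after each name and dotted lines mark the shares of all genes (1.44% higher, 1.68% lower). The clock list and the list of CDF, CONSTANS-like, B-box and PIF genes extend furthest in both directions, while nitrate transport and aquaporins extend to the left.

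The photosynthesis lists held few genes past the test and are given as a description. None of the 19 antenna genes passed; 17 had a negative log2 change and the list median was -0.4. Over all genes tested 49.6% of log2 changes were positive. Among photosystem and electron transport genes 43 of 58 were negative (median -0.24) and 1 passed. In the Calvin cycle 17 of 26 were negative (median -0.19), with 1 past the test, and in photorespiration 20 of 27 (median -0.19), with none. With a common sum of FPKM these medians were -0.24, -0.11, -0.03 and -0.04, beside 0.134 for all genes. The sums moved with single plants: photosystem genes totalled 73508, 90674 and 49364 FPKM at the end of light, with replicate 3 lowest, against 76859, 80714 and 85804 FPKM in the middle of light. With that library left out, 1 photosystem gene and 0 antenna, Calvin cycle or photorespiration genes were past the test. The list medians of that fit are not given here, and the part of that library in the medians above was not tested.

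PGR5 (Spo14852), which steers cyclic electron flow around photosystem I, was the photosystem gene that passed. It had 56.3, 56.2 and 55.4 FPKM at the end of light and 268, 217 and 190 FPKM in the middle of light, a log2 change of -1.97 ± 0.28 (adjusted p = 0.00024). The end-of-light plants were almost equal to one another, and all lay below the lowest middle-of-light plant. FBA2 (Spo18028), a chloroplast aldolase of the Calvin cycle, had 38.5, 42.3 and 17.3 FPKM at the end of light and 134, 207 and 81 FPKM in the middle of light (log2 change -2.07 ± 0.53, adjusted p = 0.035). That call was lost without any of 5 libraries: the adjusted p was 0.13 and 0.16 without middle-of-light replicates 1 and 2, and 0.074, 0.056 and 0.19 without end-of-light replicates 1, 2 and 3. It was 0.051 with a pseudocount of 0.1, 0.052 with no filter and 0.062 in a fit of the 6 libraries alone. RCA (Spo00116), the Rubisco activase, averaged 2622 FPKM at the end of light and 5446 FPKM in the middle of light (log2 change -0.98, adjusted p = 0.1).

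None of 46 tested chloroplast ribosomal protein genes passed the test; 44 had a positive log2 change, with a median of 0.28 in high nitrogen and -0.1 in low nitrogen. The 209 cytosolic ribosomal protein genes had a median of 0.07, with 150 positive and 1 past the test. In chlorophyll synthesis none of 32 passed, the median was 0.14, and log2 changes ran from -1.27 to 1.16. At the lower end, GUN4 (Spo20278), a regulator of magnesium chelatase, averaged 120.0 FPKM at the end of light and 298 FPKM in the middle of light (adjusted p = 0.081).

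**Figure D3:**
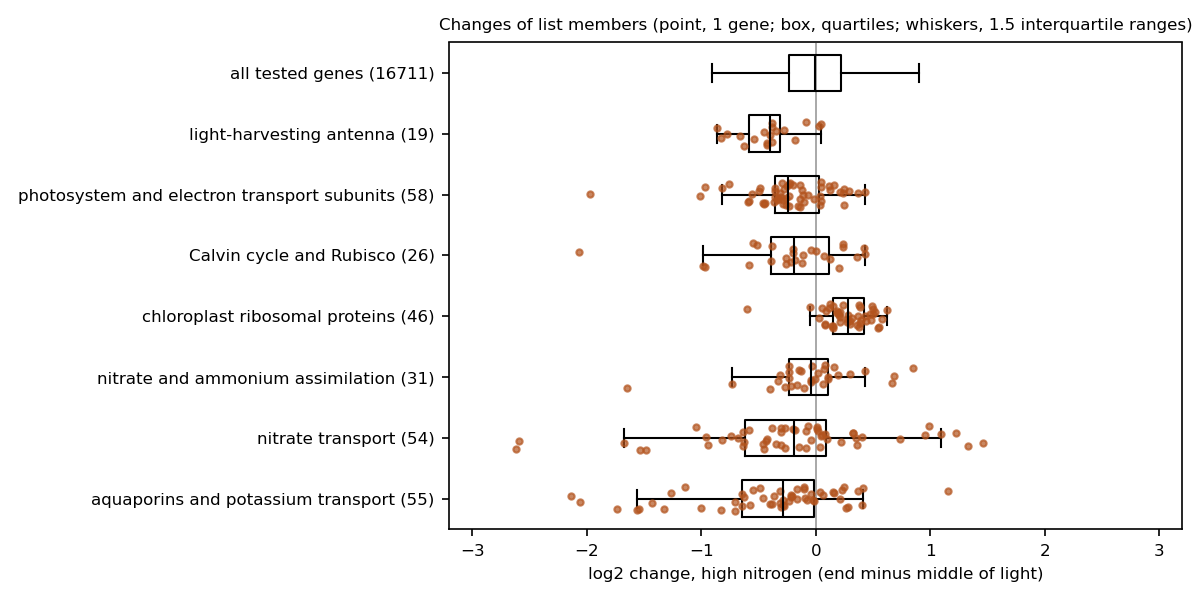
Log2 changes (end minus middle of light) of the members of 7 lists and of all genes tested in high nitrogen; each point is 1 gene, boxes show quartiles and whiskers reach 1.5 interquartile ranges. The antenna genes lie left of 0 (median -0.4) and the chloroplast ribosomal protein genes right of it (0.28), close together, while nitrate transport and aquaporin genes spread widely to the left.

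Pigment genes changed at single steps. PSY2 (Spo00660), named after phytoene synthase, the entry enzyme of carotenoid synthesis, had 1.77, 0.472 and 0.406 FPKM at the end of light and 41.1, 32.6 and 7.34 FPKM in the middle of light (log2 change -3.67 ± 0.7, adjusted p = 0.0044; 0.055 by voom). Middle-of-light replicate 3 was several fold below its group but still above every end-of-light plant. A beta-carotene hydroxylase (CA2, Spo04391, named after a pepper enzyme) fell by 1.18 on the log2 scale (adjusted p = 0.0017; 0.057 in a fit of the 6 libraries alone). These were the members of 31 tested carotenoid genes that fell, beside 1 that rose (9.68% past the threshold, against 3.11% of all genes). NYC1 (Spo18805), which starts the breakdown of chlorophyll b, had 177, 171 and 101 FPKM at the end of light and 30.6, 48.9 and 50.3 FPKM in the middle of light (log2 change 1.76 ± 0.27, adjusted p = 0.00051). On the chlorophyll breakdown list (11 tested, 18.2% past the threshold, median -0.31) NYC1 rose and CACLH (Spo26895), named after chlorophyllase, fell. CACLH had 13.2, 12.4 and 16.6 FPKM at the end of light and 37.6, 44.6 and 45.9 FPKM in the middle of light (log2 change -1.54 ± 0.34, adjusted p = 0.015). That call was lost without middle-of-light replicate 2 (0.054) or end-of-light replicate 1 (0.061) or 2 (0.068). Catalase CAT1 (Spo20223), which removes the peroxide of photorespiration, had 597, 490 and 385 FPKM at the end of light and 1493, 1313 and 871 FPKM in the middle of light (log2 change -1.31 ± 0.26, adjusted p = 0.0059; 0.072 in a fit of the 6 libraries alone).

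In starch breakdown the beta-amylases differed in direction. BAM9 (Spo09821), which lacks catalytic activity, had 7.95, 11.4 and 12.1 FPKM at the end of light and 32.7, 29.4 and 31.3 FPKM in the middle of light (log2 change -1.5 ± 0.26, adjusted p = 0.0017). BAM1 (Spo15691), a beta-amylase active by day in guard cells and under stress, had 4.56, 5.47 and 7.59 FPKM at the end of light and 30.8, 16.8 and 16 FPKM in the middle of light (log2 change -1.65 ± 0.3, adjusted p = 0.0032). Both fell and both belonged to the core. BAM3 (Spo09756), the main beta-amylase of nightly starch breakdown, named here after its values were seen, was higher at the end of light, with 6.47, 4.41 and 4.43 FPKM against 2.54, 1.66 and 2.32 FPKM in the middle of light (log2 change 0.94 ± 0.22, adjusted p = 0.022). Its call was lost without middle-of-light replicate 2 (0.1) or end-of-light replicate 1 (0.13). These were the 3 of 29 tested members past the threshold (10.3%, against 3.11% of all genes), and the list median was 0.02.

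Among sugar-linked genes, TSJT1 (Spo03551), a gene of the type induced by sugar starvation, had 143, 109 and 89.7 FPKM at the end of light and 735, 603 and 558 FPKM in the middle of light (log2 change -2.48 ± 0.3, adjusted p = 4e-05). DIN1 (Spo09152), named after a dark-induced gene of radish, was lower too, with 35.2, 43.1 and 45.5 FPKM at the end of light and 164, 130 and 171 FPKM in the middle of light (log2 change -1.88 ± 0.36). They were the 2 of 29 tested genes of the sugar-starvation type list past the test (6.9%, against 3.11% of all genes), and its median was 0. Among 66 sucrose, trehalose and sugar transport genes 1 rose and 2 fell (4.55%). The riser (Spo24440) is named after the sugar transporter ERD6-like 7, but the only protein domain listed for it is that of GH3 auxin-responsive genes, so its identity is uncertain. It had 50.7, 52.3 and 46.5 FPKM at the end of light and 5.9, 5.5 and 12.2 FPKM in the middle of light (log2 change 2.6 ± 0.36). MSSP2 (Spo01773), a vacuolar sugar importer, fell by 1.6 on the log2 scale, to 16.1, 20.5 and 22 FPKM at the end of light, against 60.8, 61.4 and 60.4 FPKM in the middle of light. Starch synthase SS1 (Spo02503) was the member of 23 starch synthesis genes past the threshold (4.35%, against 3.11% of all genes). It was at 137, 113 and 105 FPKM at the end of light and 60.4, 66.8 and 52.5 FPKM in the middle of light (log2 change 0.97, adjusted p = 0.049). With any of the 6 libraries left out it was no longer past the threshold (adjusted p 0.08 to 0.19).

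In nitrogen assimilation 1 of 31 tested genes passed, a share of 3.23% that is close to the 3.11% of all genes. That gene, nitrate reductase NIA (Spo23607, chromosome 2, 51343436 to 51348754, minus strand), had 113, 123 and 237 FPKM at the end of light and 292, 689 and 510 FPKM in the middle of light. All end-of-light plants were below all middle-of-light plants, but replicate 3 at the end of light and replicate 1 in the middle of light were close. The log2 change was -1.65 ± 0.42 (adjusted p = 0.034). The call was lost without middle-of-light replicate 2 (0.15) or 3 (0.078), without end-of-light replicate 1 (0.16) or 2 (0.14), with a common sum of FPKM (0.066), and in a fit of the 6 libraries alone (0.092). The next enzymes did not pass. Nitrite reductase NIR (Spo21339) had 211, 282 and 235 FPKM at the end of light and 267, 292 and 315 FPKM in the middle of light (adjusted p = 0.82). Chloroplast glutamine synthetase GLN2 (Spo06798) had 731, 909 and 547 FPKM at the end of light and 976, 1029 and 837 FPKM in the middle of light (adjusted p = 0.58). Ferredoxin-dependent glutamate synthase FdGOGAT (Spo24580) had 326, 403 and 357 FPKM at the end of light and 307, 658 and 285 FPKM in the middle of light (adjusted p = 0.93). The list had 13 positive and 18 negative log2 changes and a median of -0.04. The asparagine synthetases were among the members not past the test, with ASN2 (Spo06720) at 64.3, 67.9 and 60.6 FPKM at the end of light and 56, 65 and 63.4 FPKM in the middle of light. Glutamate dehydrogenase GDHB (Spo13173) had 62.8, 60.9 and 41.8 FPKM at the end of light and 201, 72.2 and 51.8 FPKM in the middle of light, with middle-of-light replicate 1 far above the other plants. None of the 6 tested ammonium transporters passed.

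The nitrate transport list had 7 members that fell and 1 that rose among 54 tested (median -0.19), against 1.68% lower and 1.44% higher of all genes. With a common sum of FPKM it had 4 that fell and 2 that rose. NPF6.2 (Spo05548), a low-affinity nitrate transporter of leaf petioles in Arabidopsis, had 23.4, 14.1 and 11.7 FPKM at the end of light and 192, 107 and 51.5 FPKM in the middle of light (log2 change -2.62 ± 0.49, adjusted p = 0.0038). It was the member of the list that belonged to the core. NPF7.3 (Spo23405), which loads nitrate into the xylem of Arabidopsis roots, had 1.68, 1.09 and 0.7 FPKM at the end of light and 28.2, 13.2 and 4.11 FPKM in the middle of light (log2 change -2.6 ± 0.65, adjusted p = 0.032). NPF6.4 (Spo18484) had 34.5, 29.1 and 56.6 FPKM at the end of light and 150, 116 and 74.8 FPKM in the middle of light (log2 change -1.48 ± 0.33, adjusted p = 0.014). NPF5.10 (Spo01072) had 20.1, 17.3 and 17.5 FPKM at the end of light and 33.3, 36.5 and 37.8 FPKM in the middle of light (log2 change -0.94 ± 0.21, adjusted p = 0.014; 0.063 and 0.055 without end-of-light replicates 2 and 3, and past the threshold no longer with a common sum of FPKM). In NPF6.2, NPF7.3 and NPF6.4, but not in NPF5.10, middle-of-light replicate 1 was highest and replicate 3 lowest of their group. The number of members that fell was 2 without middle-of-light replicate 1, 3 without middle-of-light replicate 2, 4 without end-of-light replicate 1, and 2 without end-of-light replicate 2 or 3. NPF7.3 lost its call without any library other than middle-of-light replicate 3 (adjusted p 0.074 to 0.22), by voom (0.12) and in a fit of the 6 libraries alone (0.073). NPF6.4 lost it without middle-of-light replicate 1 or 2 or end-of-light replicate 1 or 2 (0.055 to 0.11) and in a fit of the 6 libraries alone (0.073).

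Among 44 nitrogen regulators, 1 rose and 1 fell (4.55%, against 3.11% of all genes), and both carry names of the same BTB and TAZ domain family. BT3 (Spo14346) had 12.3, 10.6 and 9.45 FPKM at the end of light and 80.9, 71.7 and 40.3 FPKM in the middle of light (log2 change -2.42 ± 0.38, adjusted p = 0.00064), and belonged to the core. BT1 (Spo08783) had 141, 154 and 186 FPKM at the end of light and 29.2, 25.5 and 22.9 FPKM in the middle of light (log2 change 2.58 ± 0.68, adjusted p = 0.043). Its groups were well apart, yet leaving out any of the 6 libraries took the adjusted p to between 0.09 and 0.14.

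Of 55 tested aquaporins and potassium transport genes 6 fell and 1 rose (12.7%, against 3.11% of all genes), and the median was -0.28. With a common sum of FPKM 4 fell and 1 rose. The riser, AKT1 (Spo12230), a potassium uptake channel, named after its values were seen, had 7.01, 4.76 and 6.44 FPKM at the end of light and 2.45, 2.27 and 1.75 FPKM in the middle of light (log2 change 1.16 ± 0.23), and belonged to the core. A gene named after a vacuolar aquaporin (AQP1, Spo06391) had 482, 567 and 322 FPKM at the end of light and 2483, 1315 and 696 FPKM in the middle of light (log2 change -1.56, adjusted p = 0.043). Its neighbour TIP1-2 (Spo06392) had 200.0, 229 and 135 FPKM at the end of light and 966, 531 and 304 FPKM in the middle of light (log2 change -1.55, adjusted p = 0.032). Both were chosen after their values were seen. They ran in parallel through the 6 plants, with middle-of-light replicate 1 highest. The sources used here do not state how reads shared by near-identical copies were counted. Without middle-of-light replicate 1 the adjusted p was 0.3 for AQP1 and 0.23 for TIP1-2, and the list had 1 member that fell; it had 2 without middle-of-light replicate 2 or end-of-light replicate 1 or 3, and 1 without end-of-light replicate 2.

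The gene with the highest log2 change was AMP (Spo28197, chromosome 2, 26317401 to 26317637, minus strand), named after an antimicrobial peptide of amaranth. It had 574, 581 and 651 FPKM at the end of light and 1.11, 3.81 and 4.7 FPKM in the middle of light, a log2 change of 7.28 ± 0.72 (adjusted p = 3.7e-06). The end-of-light plants were close to one another, and the lowest value in the middle of light rested on 5 fragments. On the list of jasmonate, salicylate and defence genes (77 tested, median -0.05) AMP was the riser and 1 gene fell (2.6%, against 3.11% of all genes).

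Several of the highest and lowest log2 changes belonged to neighbouring copies on no list. A pair of neighbouring genes named after alpha-farnesene synthase (TPS7), which makes a sesquiterpene scent, were high at the end of light in replicates 1 and 2 and less so in replicate 3. Spo19724 had 31.4, 27.4 and 3.87 FPKM at the end of light and 0.399, 0.458 and 1.76 FPKM in the middle of light (log2 change 3.21 ± 0.48, adjusted p = 0.00047; 0.051 by voom and 0.072 in a fit of the 6 libraries alone). Spo19723 had 33.6, 27.8 and 6.74 FPKM at the end of light and 0.0549, 0 and 1.65 FPKM in the middle of light (log2 change 3.81 ± 0.88, adjusted p = 0.019; 0.36 by voom). Spo19723 was not past the threshold without middle-of-light replicate 1 or 2 or end-of-light replicate 1 or 2 (0.077 to 0.1). A neighbouring pair named after petunia methyltransferases of benzoic and salicylic acid fell. BSMT1 (Spo25251) had 3.69, 0.45 and 0.826 FPKM at the end of light and 37.7, 22.1 and 16 FPKM in the middle of light (log2 change -3.42 ± 0.59). BSMT3 (Spo25252) had 1.09, 0 and 1.07 FPKM at the end of light and 19.2, 10 and 6.09 FPKM in the middle of light (log2 change -2.84 ± 0.53; adjusted p = 0.0039, and 0.05 by voom). Reads shared within either pair may have been split between the copies.

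Of 66 tested phenylpropanoid, flavonoid and betalain genes 4 fell and none rose (6.06%, against 3.11% of all genes), and the median was -0.11. With a common sum of FPKM 3 fell and the median was 0.00, beside 0.134 for all genes. CYP75A6 (Spo11398), a flavonoid hydroxylase, had 4.45, 4.19 and 5.03 FPKM at the end of light and 17.6, 21.4 and 10.4 FPKM in the middle of light (log2 change -1.6 ± 0.31, adjusted p = 0.0056), and was the member in the core. The count of members that fell was 1 without middle-of-light replicate 1, 2 without middle-of-light replicate 2 or end-of-light replicate 2, and 7 without middle-of-light replicate 3. TOGT1 (Spo24490), named after a tobacco glucosyltransferase of the coumarin scopoletin and no member of that list, had 0.518, 0.461 and 0.936 FPKM at the end of light and 39.9, 36.4 and 5.13 FPKM in the middle of light (fitted log2 change -3.7 ± 0.54). It is among the 12 genes that passed the filter through the middle-of-light group alone, which bound it to differ.

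Of 33 abscisic acid genes 1 rose and 1 fell (6.06%, against 3.11% of all genes). PYL5 (Spo18840), a receptor of abscisic acid, had 83.1, 85.8 and 67.6 FPKM at the end of light and 7.5, 7.99 and 13.7 FPKM in the middle of light, a log2 change of 2.93 ± 0.31 (adjusted p = 9.2e-06). The gene that fell, CYP707A4 (Spo22545), named after an enzyme that breaks down abscisic acid, had 3.04, 1.77 and 1.01 FPKM at the end of light and 10.3, 7.38 and 4.68 FPKM in the middle of light (log2 change -1.53, adjusted p = 0.027; 0.17 and 0.08 without middle-of-light replicates 1 and 2, and 0.088 and 0.14 without end-of-light replicates 2 and 3). It was chosen after its values were seen. DREB1D (Spo12854), a transcription factor of cold and drought responses, had 17.2, 15.7 and 7.3 FPKM at the end of light and 1.22, 1.05 and 1.08 FPKM in the middle of light (log2 change 2.69 ± 0.36, adjusted p = 0.00013). It was 1 of 2 members of 68 ethylene and dehydration-responsive factors to rise, and none fell (2.94%, close to the 3.11% of all genes). None of 95 auxin genes passed. GASA1 (Spo18312), a gibberellin-regulated peptide gene, had 69.4, 25.8 and 29.7 FPKM at the end of light and 363, 220.0 and 144 FPKM in the middle of light (log2 change -2.55 ± 0.52, adjusted p = 0.0073; 0.062 without middle-of-light replicate 1 and 0.05 without end-of-light replicate 2). A gene named after an auxin-repressed protein of strawberry (12KD, Spo21332) had 352, 414 and 806 FPKM at the end of light and 21.5, 11.4 and 136 FPKM in the middle of light (log2 change 3.87 ± 0.98, adjusted p = 0.033). Replicate 3 was the highest plant of both times for 12KD, and its call held only with middle-of-light replicate 3 left out (0.075 to 0.16 without each other library).

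Chaperones also split. HSP15.4 (Spo16568), a small heat shock protein, had 56.3, 55.8 and 33.7 FPKM at the end of light and 4.72, 9.59 and 16.1 FPKM in the middle of light (log2 change 2.26 ± 0.36, adjusted p = 0.00071). It was the riser among 75 heat shock genes, of which 3 fell (5.33% past the threshold, against 3.11% of all genes). With a common sum of FPKM 3 rose and 2 fell. The number that fell was 0 without middle-of-light replicate 1 or 2, 4 without middle-of-light replicate 3 and 1 without any one of the end-of-light libraries. Among those, HSP70 (Spo06975) had 2.82, 0.629 and 2.04 FPKM at the end of light and 14.1, 18.8 and 7.67 FPKM in the middle of light (log2 change -2.37, adjusted p = 0.029; 0.067 to 0.15 without middle-of-light replicate 1 or 2 or end-of-light replicate 2 or 3, and 0.053 by voom). A DnaJ-type chaperone gene (Spo24503, given the mouse name Dnajb8) had 78, 76.1 and 67.9 FPKM at the end of light and 4.29, 4.63 and 12.7 FPKM in the middle of light (log2 change 3.33 ± 0.43).

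Several strong changes fell on single enzymes and transporters. SCP1 (Spo01011), a serine carboxypeptidase named from Medicago, had 57.3, 57.3 and 48.1 FPKM at the end of light and 1.99, 2.7 and 5.15 FPKM in the middle of light (log2 change 3.75 ± 0.32). SMO1-1 (Spo21247), a methylsterol oxidase of sterol synthesis, had 5.52, 5.82 and 2.85 FPKM at the end of light and 85.2, 84.4 and 63.9 FPKM in the middle of light (log2 change -3.82 ± 0.38, adjusted p = 4.1e-06). FAD4 (Spo21711), which desaturates the lipids of chloroplast membranes, had 6.25, 5.98 and 32.4 FPKM at the end of light and 61.3, 101 and 55.2 FPKM in the middle of light (log2 change -2.57 ± 0.44, adjusted p = 0.0015; 0.082 in a fit of the 6 libraries alone). For FAD4, end-of-light replicate 3 lay well above its group and still below the lowest middle-of-light plant. SULTR3;1 (Spo02354), a sulfate transporter of chloroplasts, fell by 1.89 on the log2 scale (adjusted p = 0.00011). PAP27 (Spo19748), named after a purple acid phosphatase held to be inactive, had 45.5, 36.8 and 27.4 FPKM at the end of light and 2.63, 3.04 and 4.94 FPKM in the middle of light (log2 change 3.05 ± 0.36). PAP27 and SULTR3;1 were the riser and the faller among 60 phosphate and sulfate genes, a share of 3.33% that is close to the 3.11% of all genes. A WAT1-related transporter gene (At1g70260, Spo10715) had 48.6, 21.5 and 15.2 FPKM at the end of light and 174, 206 and 110 FPKM in the middle of light (log2 change -2.6 ± 0.48).

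The times not used in the comparison place these changes in the day. Of the 240 genes that rose, 196 were highest of the 4 times at T3 and 40 at T4. The lowest mean was that of T1 for 147 and of T2 for 82. Of the 280 genes that fell, 163 were highest at T1 and 117 at T2, and 119 were lower still in the middle of dark than at the end of light. These shares follow in part from the choice of the genes by their values at 2 of the 4 times, and are given with no test.

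Single genes showed which form a change took. ADO3 averaged 0.893, 4.69, 51 and 3.73 FPKM from the end of dark through the middle of light, the end of light and the middle of dark, so that it was high at 1 time only. APRR1 averaged 64.5, 3.48, 73.7 and 79.4 FPKM, low in the middle of light alone. EFL1 averaged 2.19, 0.41, 62.2 and 79.5 FPKM and stayed high into the dark. AMP averaged 0.593, 3.21, 602 and 63.6 FPKM over the same times. NIA averaged 1238, 497, 158 and 610 FPKM, lowest at the end of light. The APRR5-named genes crossed: Spo22291 averaged 1.49, 20.5, 102 and 0.702 FPKM, and Spo01087 averaged 32.5, 40.7, 7.88 and 1.8 FPKM. LNK1 and LNK2 averaged 0.498 and 0.881 FPKM in the middle of dark, below their end-of-light means of 22.2 and 16.5 FPKM, while RVE8 averaged 121 FPKM in the middle of dark, above its end-of-light mean of 41.9.

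**Figure D4:**
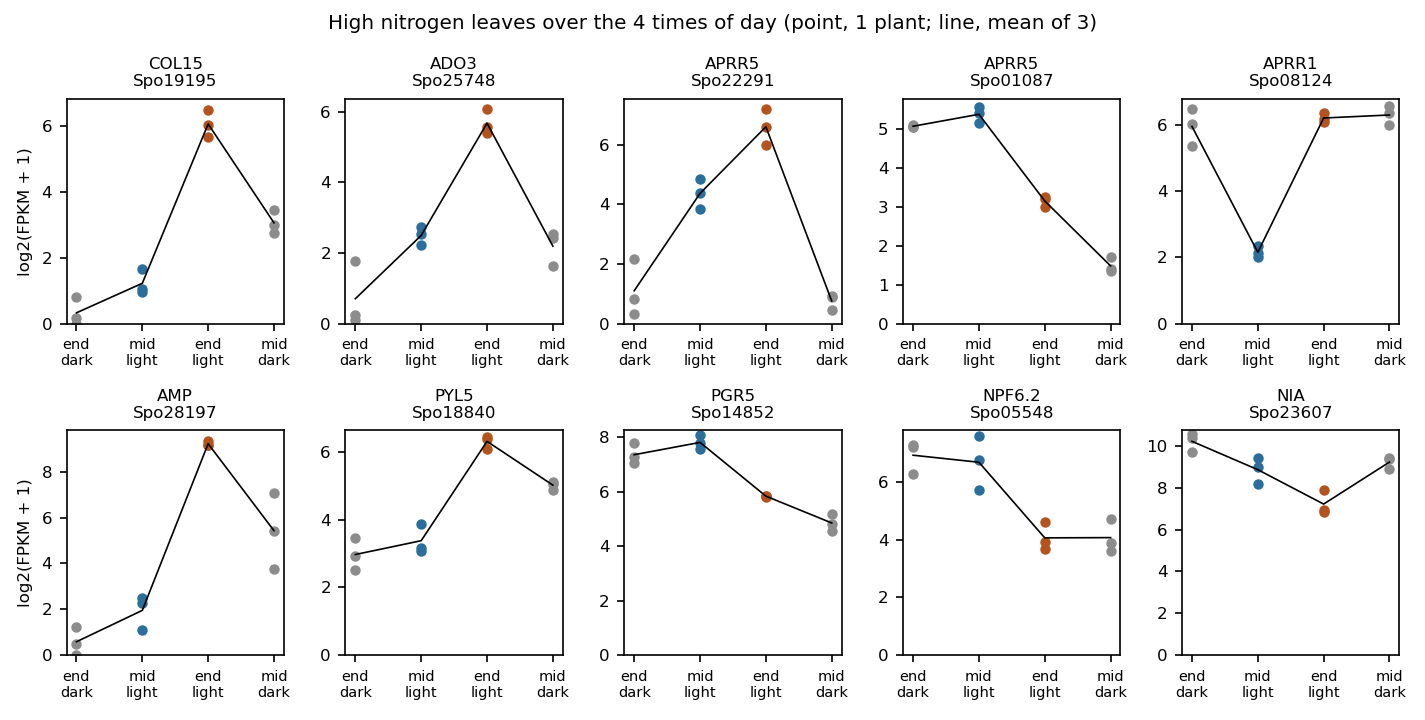
Levels of 10 named genes in high nitrogen leaves over the 4 times of day, as log2(FPKM + 1); each point is 1 plant, the line joins means of 3, and the end and the middle of light are coloured orange and blue. ADO3 and AMP peak at the end of light, APRR1 dips in the middle of light, and the APRR5-named genes peak at different times.

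The same interval in low nitrogen leaves shared no library with the one described. There, 351 of 16916 genes tested (2.07%) passed, 204 higher (1.21%) and 147 lower (0.869%) at the end of light. The low nitrogen count was 201 without its middle-of-light replicate 2, 197 without its end-of-light replicate 2 and 728 without its end-of-light replicate 3. Of the 520 high nitrogen genes 516 were tested in low nitrogen. Of these, 207 passed there too, all in the same direction, which is 40.1% of the high nitrogen calls and 60% of the low nitrogen calls among the 16442 genes tested in both, against 2.1% of those genes called in low nitrogen. With 1 library left out on either side the shared number lay between 144 and 193. Without regard to the threshold, 231 of the 238 genes that rose and 269 of the 278 that fell had the same sign in low nitrogen.

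The median log2 change of the genes that rose was 1.23 in high nitrogen and 1.06 in low nitrogen, and of those that fell -1.32 in high nitrogen and -0.78 in low nitrogen. The genes were chosen by their high nitrogen values, so the larger sizes in high nitrogen are in part set by that choice. LHY had a log2 change of -4.54 in high nitrogen and -3.73 in low nitrogen, COL15 of 4.84 and 4.89, APRR1 of 4.06 and 4.05, and AMP of 7.28 and 5.91. NPF6.2 had -2.62 in high nitrogen and -1.12 in low nitrogen (adjusted p = 0.3 in low nitrogen), NIA -1.65 and -0.75, and TIP1-2 -1.55 and 0.01.

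The difference between the nitrogen levels was tested in itself. No gene of 16711 (0%) passed for the difference of the changes (limma; smallest adjusted p = 0.86), and none did by voom. At an unadjusted p under 0.05 there were 920 genes (5.51%) by limma and 917 by voom. For TIP1-2 the difference, high minus low nitrogen, was -1.55 ± 0.55 on the log2 scale, for NPF6.2 -1.5 ± 0.69, for PGR5 -1.07 ± 0.4 and for NIA -0.9 ± 0.59, each with an adjusted p of 0.86. The 309 genes called in high nitrogen and not in low nitrogen are therefore not shown to respond differently.

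**Figure D5:**
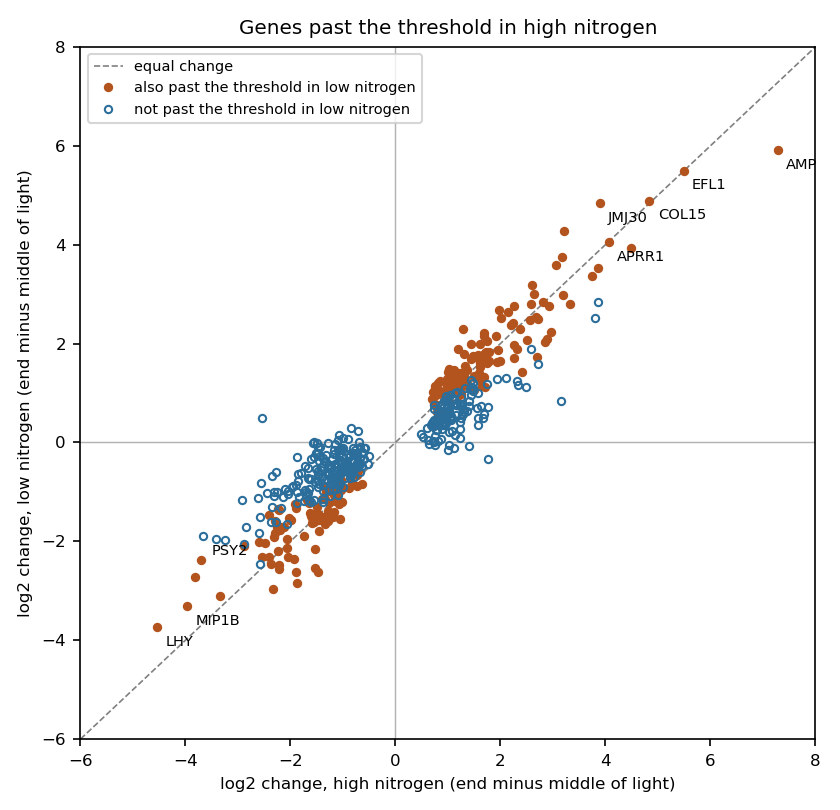
Log2 change from the middle to the end of light in high nitrogen (horizontal) and low nitrogen (vertical) for the 516 genes past the threshold in high nitrogen and tested in both; filled points (207) also passed in low nitrogen, open points did not, and the dashed line marks equal change. Nearly all points lie in the quadrants of equal sign, and the genes that fell have a median of -1.32 in high nitrogen and -0.78 in low nitrogen.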

How the data were processed

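The authors deposited gene FPKM values for 24 leaf libraries, made from poly-T purified mRNA with a strand-marking dUTP kit per the labels' protocols. The submitters' processing notes name HISAT2, RSEM and DESeq2 1.20.0, with no role stated, and the series title names the Sp75 genome; the sources used here do not state the strand setting of the counting. The FPKM steps gave whole fragments within a tolerance of 0.01 for 100% of values, and the recovered totals ran from 18369094 to 25252705 per library. The scaling between libraries followed median-of-ratios size factors (the median over genes of a library's fragments against the gene's mean) to within 0.0077%. It did not follow total fragments, so the sums of FPKM differ between libraries. Log2(FPKM + 1) was fitted with limma 3.58.1 in R 4.3.3, with 8 group means over all 24 libraries, 16 residual degrees of freedom, a variance trend and Benjamini-Hochberg adjustment over all genes tested. A fold change on this scale understates that of low genes. SE is that of the fitted log2 change. Nothing beyond the label of independent plants tells how replicates were raised.

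The text names genes by rule: tested members of the clock and nitrogen assimilation lists; the 3 members of each other list with the smallest adjusted p, and the 12 highest and 12 lowest log2 changes of called named genes, both above a mean of 5 FPKM. Others are said to be chosen after their values were seen. The members and lists were chosen with earlier results of these data known. No pair of libraries agreed within sampling noise. Alternatives were a pseudocount of 0.1, other filters, a common sum of FPKM, a fit of the compared groups alone, a robust fit, a replicate block, voom on recovered fragments, and each library left out. The steps were tested on simulated data. Sequences are not used here. The values of 1 gene named by the rule are not reported here.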

Additional observations from a re-analysis of the deposited data

How the results depend on the processing

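The high nitrogen count of 520 genes was 457 to 521 with a pseudocount of 0.1, other filters, a common sum of FPKM, a robust fit or voom, and 285 in a fit of the compared groups alone, which has fewer residual degrees of freedom. The low nitrogen count of 351 was 126 in such a fit. With each library left out in turn the counts lay between 257 and 558 in high nitrogen and between 197 and 728 in low nitrogen. Of the 520 genes, 450 were kept by voom, 412 with a common sum of FPKM and 235 by the fit of the compared groups alone. The difference between the nitrogen levels gave 0 genes in every alternative run. A replicate block gave 412 genes in high nitrogen, 274 in low nitrogen and 0 for the difference. Same-numbered plants of high nitrogen had deviations correlated at 0.25, -0.233 and 0.314, and differently numbered plants at -0.384 to 0.159. With 3 plants a group these values cannot decide whether a number marks a shared block. Of 87 named genes past the threshold, 45 held in every alternative other than leaving out a library. Among those 45 are the 42 that also held whichever library was left out. The rest of the 87 lost their call in some alternative other than leaving out a library, and none reversed. Depth limits low genes most: the filter removed 8783 genes, of which 4019 were at 0 in all 6 libraries.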

Other observations

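Of the 520 genes, 419 carry a protein name in the deposited table, as do 17585 of all 25494 genes in it. The share among the genes tested was not counted. Of the 101 without a name, 37 were higher and 64 lower at the end of light, beside 240 and 280 of all genes called. Chosen after their values were seen, Spo15293 averaged 8.53 FPKM at the end of light and 94.2 FPKM in the middle of light (log2 change -3.34, adjusted p = 1.3e-08 by limma). Spo21289 averaged 102 FPKM at the end of light and 6.43 FPKM in the middle of light (log2 change 3.87), and Spo25351 averaged 184 FPKM at the end of light and 25.8 FPKM in the middle of light (log2 change 2.81). Among named genes on no list, chosen in the same way, RBCX1, named after a chaperone of Rubisco assembly, averaged 77.7 FPKM at the end of light and 11.9 FPKM in the middle of light (log2 change 2.63). SQE1, a squalene epoxidase of sterol synthesis, averaged 13.6 FPKM at the end of light and 52.1 FPKM in the middle of light (log2 change -1.86).

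Among 14754 pairs of neighbouring tested genes, 900 held at least 1 called gene and 41 (0.278%) held a called gene at both positions. In 37 of those 41 pairs both genes moved the same way, 14 pairs higher and 23 lower at the end of light. Some of these pairs overlap on the genome, some share a gene with another pair and some lie far apart. Whether neighbours move together was not tested. The members of 4 of these 37 pairs share a protein name, and how reads common to such copies were counted is unknown.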
